A study of Homo sapiens with 9 samples.

Results

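The proteasome subunit genes are described here in human cells in which the cytoplasmic decay of mRNA was disturbed. They were chosen by symbol, as every gene whose symbol starts with PSMA, PSMB, PSMC, PSMD, PSME, PSMF or PSMG and names neither a pseudogene nor an antisense transcript. The rule found 49 genes among the 50432 gene symbols of the assembled transcriptome. Of these, 47 had a value in the gene table and 45 had a mean of at least 1 FPKM (fragments per kilobase of transcript, scaled to the mapped fragments of the library), the minimum used here. PSMA8 and PSMB11, the testis and thymus forms of an alpha and a beta subunit, were not listed in the gene table, and PSMB8 and PSMD5 fell below the minimum.

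The cells were HEK293, a human embryonic kidney line, of the b-39 Flp-In T-Rex subline, and every library used here came from cells that carry a beta-globin PTC39 reporter at the Flp-In site. The 4 libraries are the control, treated with an EGFP siRNA, the XRN1 depletion, the SMG6/XRN1 depletion and the UPF1/XRN1 depletion, so that by their labels both co-depletions share that of XRN1. Poly(A)+ RNA from the cytoplasm, released with digitonin, was sequenced with ScriptSeq v2, and these are 4 of the 9 samples of the series; the other samples, which map the 5' ends of RNA and capped starts, were not analysed here. XRN1 is the main exonuclease that degrades cytoplasmic RNA from its 5' end, SMG6 is the endonuclease of nonsense-mediated decay (NMD), and UPF1 is the helicase that NMD depends on. With 1 library for each condition there is no replicate check, no difference has a p-value, and every interval given covers counting error only. In bulk RNA of this kind, fewer cells of a type and less RNA per cell cannot be told apart.

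The proteasome degrades proteins tagged with ubiquitin. Its core particle is a barrel of alpha and beta rings, in which PSMB5, PSMB6 and PSMB7 carry the active sites, and PSMB8, PSMB9 and PSMB10 take their place in immune cells or after interferon. The regulatory particle on its ends holds a ring of ATPases (PSMC) that unfold substrates, and non-ATPase subunits (PSMD) that bind and remove ubiquitin; PSME activators can take its place, PSMF1 inhibits the core in vitro, and PSMG chaperones assist assembly. Cells adjust all subunit genes together through the factor NFE2L1. NMD removes mRNAs in which translation stops well before the last exon junction, and many genes that encode ordinary proteins also make such isoforms by alternative splicing.

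Several isoforms of proteasome genes are of that kind. GENCODE release 29 types 37 of the 340 isoforms that match an annotated transcript of these genes as nonsense_mediated_decay, and 24 of those with an annotated stop codon had enough signal to be followed. The stretches around the premature stop of 7 of them are shown because these isoforms carry the clearest differences between libraries, and they were picked after the values had been seen. Each is 30 bases of the mature RNA, read 5' to 3' from the GRCh38 genome along the GENCODE exons, with the stop codon in capitals.

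PSMD12-207: ctttataggtatTGAtttaaatcttacacc
PSMA2-205: gagctcgaaaacTAGctcaacaatactatc
PSMA2-203: ttacagatgaacTAAccgcagcttgtacaa
PSMC6-205: tttctttccattTAAtcaagtgcctcgact
PSMD4-203: actgcgggatgcTAAacattgaaagctggg
PSMC3IP-203: tggggaccagttTGAcatggtgagtgatgc
PSMB5-201: caggctgagtacTGAacgcccgcgacttgc

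In PSMD12-207 the stop lies at chr17:67362872-67362874 on the minus strand, in exon 2 of 13, and 1316 bases of RNA separate it from the last exon junction. PSMD12-207 holds 2 exons, of 167 and 117 bases, that the main coding isoform PSMD12-201 lacks, and its reading frame ends after 42 codons where that of PSMD12-201 has 456. PSMA2-205 leaves out an exon of 133 bases and stops at chr7:42924769-42924771 after 36 codons, and PSMA2-203 takes in an exon of 60 bases and stops after 17. PSMC3IP-203 takes in an exon of 19 bases and stops after 84 codons, in exon 5 of 9. PSMC6-205, PSMD4-203 and PSMB5-201 stop within exon 1, 555, 242 and 479 bases before the last junction. Over the 24 isoforms the stop lay 79 to 3669 bases before the last junction (median 475.5).

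Other isoforms have the same architecture. These 3 are shown as a contrast, since their levels differed by less than 2-fold between any of the 4 libraries, and they were also picked after the values had been seen.

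PSMG1-204: agttggttgtgcTAAactctggaatgaatg
PSMB6-202: agccagcctcttTAAggagatgtgttaccg
PSMD13-202: tcttcatgtagtTAGacagatgactgatcc

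PSMG1-204 leaves out an exon of 107 bases and stops 493 bases before its last junction, PSMB6-202 stops 224 bases before it and PSMD13-202 stops 781 bases before it. The deposited table names older versions of most of these transcripts, and the version was the same in 5 of the 24, so exon ends can differ in the others.

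The depth was close in the 4 libraries. The isoform values correspond to an estimated 31476526 reads in the control, 32970741 in the XRN1, 34649851 in the SMG6/XRN1 and 35983475 in the UPF1/XRN1 library. Of 8 HEK293 markers 6 passed 1 FPKM, with KRT8, KRT18 and VIM at means of 207, 52.0 and 369 FPKM and NEFM and PAX2 below it, whereas PTPRC, ALB, COL1A1 and DES, which mark blood, liver, fibroblasts and muscle, had means of at most 0.403 FPKM. The blood marker CD68 could not be read, because it holds 0.434% of the reads of the locus it shares, and PECAM1 was not listed in the gene table. XRN1 mRNA itself was listed at 7.80, 7.31, 10.1 and 6.50 FPKM in the control, XRN1, SMG6/XRN1 and UPF1/XRN1 libraries, SMG6 at 4.77, 5.55, 7.66 and 5.97, and UPF1 at 6.71, 11.6, 11.4 and 8.59. The XRN1 and SMG6 levels in the libraries labelled with their depletion thus lay close to or above the control, so these mRNA levels do not show those depletions. By reads XRN1 was at 0.894 times control in the XRN1 library (0.834 to 0.958). Ratios and folds by reads between libraries weight each count by the spike-in normalised value of 1 read. That value was 3.85, 4.05, 4.25 and 3.72 in the control, XRN1, SMG6/XRN1 and UPF1/XRN1 libraries. Such ratios therefore differ from the plain quotient of the printed reads. UPF1 was lower in the UPF1/XRN1 than in the XRN1 library, with a read ratio of 0.636 (0.591 to 0.684), but not lower than in the control, at 1.10 (1.011 to 1.19). XRN1, SMG6/XRN1 and UPF1/XRN1 below stand for the libraries labelled so, also where a direction is given.

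Proteasome mRNAs were abundant: 43 of the 45 genes had a mean above 10 FPKM. At the level of whole genes almost nothing passed 2-fold, the size used here to call a difference on the scale of log2(FPKM + 1). In the XRN1 library against control, 0 of 45 genes were called in either direction, where 4.11% of all 12164 genes were higher and 0.37% lower. In SMG6/XRN1 against XRN1, 0 were called, beside 1.36% and 0.173% of all genes. In UPF1/XRN1 against XRN1, 1 gene was higher and 0 lower, beside 2.52% and 0.534%. Against control, 0 were called in SMG6/XRN1 (9.3% and 0.263% of all genes), and 1 was higher in UPF1/XRN1 (10.2% and 0.575%). The one called gene was PSMC3IP, which is no subunit. The median log2 change of the 45 genes was -0.04, 0.05 and 0.04 in the 3 stepwise comparisons, where that of all genes was 0.14, 0.12 and 0.02. These comparisons share libraries, and the values are given side by side for that reason.

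**Figure D1:**
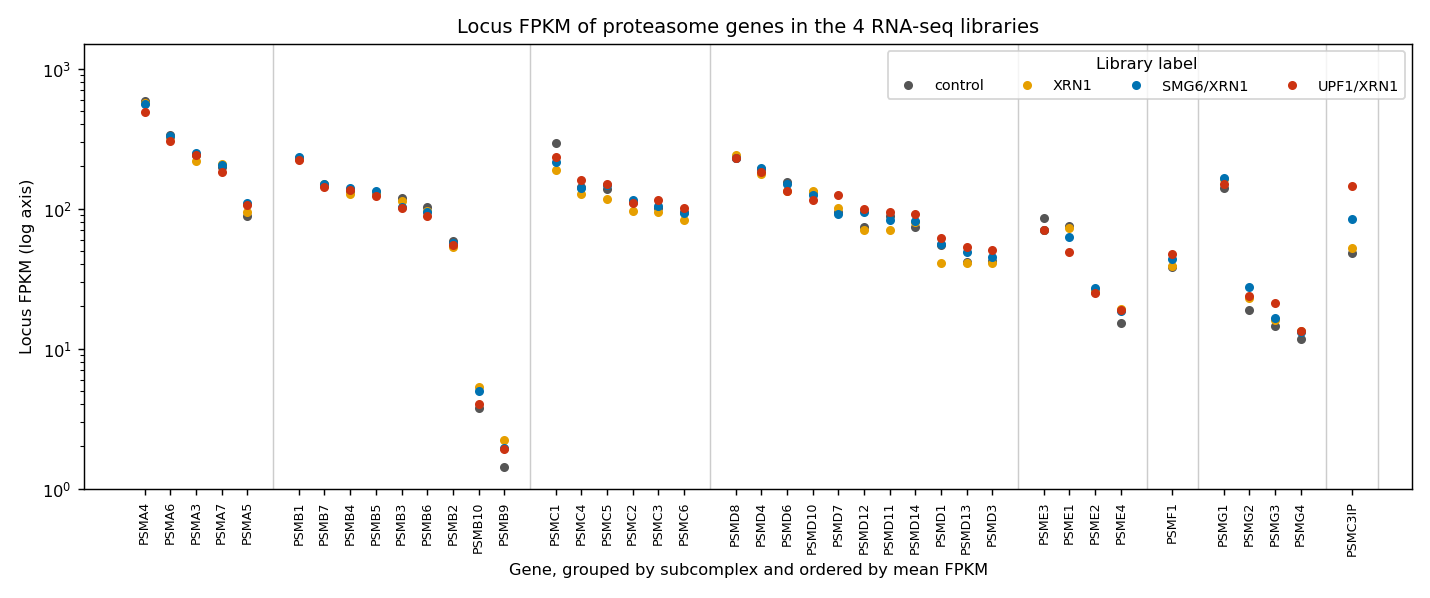
Locus FPKM (log axis) of the 41 proteasome genes that hold at least 80% of the reads of their locus, grouped by subcomplex, with 1 point for each of the 4 libraries. Most points of a gene lie nearly on top of each other; PSMC3IP, at the right, runs from 48.4 FPKM in the control to 145.4 in the UPF1/XRN1 library.

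For 4 of the 45 genes under 80% of the reads of the locus belong to the gene, and its own reads are used below where it is named. The medians and counts of whole groups still include these genes by locus FPKM. Without them, 2 of 5 alpha genes and 9 of 11 non-ATPases were above 0 in UPF1/XRN1 over XRN1. Their medians there were -0.09 and 0.29. PSMA1 holds 54.3% of the reads of its locus, which also contains COPB1, PSMA2 71.5%, PSMD9 77.7%, and PSMD2 20.1%, with the translation factor gene EIF4G1 in the same locus. PSMA6, PSMB9, PSMB10 and PSMG2 hold 85.4% to 92.4% of theirs and are given by locus FPKM.

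The alpha ring forms the gate of the core. PSMA4 was its most abundant mRNA, at 588, 568, 561 and 491 FPKM; values of 4 are always given in the order control, XRN1, SMG6/XRN1, UPF1/XRN1. PSMA5 was the lowest, at 87.9, 94.6, 110.5 and 107.0 FPKM. Over the 5 alpha genes that hold at least 80% of their locus the order of levels was the same in all 4 libraries, and PSMA4 was lowest in UPF1/XRN1, where PSMA5 stood above control. PSMA3, PSMA6 and PSMA7 lay between them, and none of their log2 changes of FPKM between any compared pair passed 0.19 in size. PSMA2 had 5639, 4810, 4477 and 3883 reads of its own, so that the UPF1/XRN1 library held 0.742 times the level of the XRN1 library (95% interval 0.711 to 0.774). PSMA1 went the other way, with 5392, 5738, 6346 and 7389 reads and a spike-in weighted ratio of 1.18 (1.14 to 1.22) in the same comparison.

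In the beta ring the 3 catalytic subunits changed little. PSMB5, the chymotrypsin-like subunit, was at 130, 132, 134 and 124 FPKM in control, XRN1, SMG6/XRN1 and UPF1/XRN1. PSMB6, the caspase-like subunit, was at 103, 96.2, 94.5 and 88.5 FPKM. PSMB7, the trypsin-like subunit, was at 148, 149, 150 and 143 FPKM. By reads, the UPF1/XRN1 over XRN1 ratio was 1.001 (0.963 to 1.04) for PSMB5, 0.979 (0.925 to 1.04) for PSMB6 and 0.980 (0.943 to 1.02) for PSMB7, each interval reaching 1. In the other comparisons some intervals reached 1 and some did not. SMG6/XRN1 over control was 1.07 (1.03 to 1.12) for PSMB5 and 1.09 (1.05 to 1.14) for PSMB7. UPF1/XRN1 over control was 0.940 (0.890 to 0.994) for PSMB6. Of the structural subunits PSMB1 was the highest, at 229, 226, 233 and 222 FPKM, and PSMB3, which helps to build the ring, ran from 119 in the control to 113, 102 and 101.

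The interferon-inducible counterparts were low. PSMB8 had 5, 11, 18 and 9 reads in the 4 libraries and PSMB9 had 29, 52, 46 and 40. PSMB10 was at 3.78, 5.28, 4.96 and 3.99 FPKM. These are the subunits of the immunoproteasome, and each was far below the catalytic subunit that it can replace. PSMB9 and PSMB10 had the largest positive log2 changes of the members in XRN1 over control, 0.41 and 0.39, and the read ratio of PSMB9 was 1.88 (1.17 to 3.08) on 29 and 52 reads.

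The ATPases of the regulatory particle lay on 1 side of 0 at each step, by small amounts. In XRN1 over control the median log2 change of the 6 was -0.20 and 0 of 6 were above 0, although with isoform signals summed for each gene 1 of the 6 was above 0. In SMG6/XRN1 over XRN1 all 6 were above 0 (median 0.18), and in UPF1/XRN1 over XRN1 all 6 were above 0 again (median 0.29), on each of the 4 scales tried. All genes had medians of 0.12 and 0.02 there, and centred on these the ATPase medians were 0.06 and 0.27. Against control the ATPase median was only 0.01 in SMG6/XRN1 (3 of 6 above 0) and 0.10 in UPF1/XRN1 (4 of 6). Both were below the medians of all genes, 0.25 and 0.15. PSMC1, the most abundant ATPase mRNA, was at 296, 189, 215 and 232 FPKM. The control therefore stood apart for PSMC1: the XRN1 library held 0.684 times its level by reads (0.665 to 0.702), and neither co-depletion returned to it. PSMC6, the least abundant ATPase, was at 94.4, 83.1, 93.5 and 100.2 FPKM, again lowest with XRN1, but with the co-depletions close to the control level. In UPF1/XRN1 over XRN1 the ATPase changes of FPKM ran from 0.21 for PSMC2 to 0.37 for PSMC5. By reads the order was another, from 0.26 for PSMC6 to 0.43 for PSMC4, with PSMC2 at 0.42.

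The non-ATPases did likewise, less uniformly. Their median change was -0.04 in XRN1 over control, 0.14 in SMG6/XRN1 over XRN1 and 0.29 in UPF1/XRN1 over XRN1, with 4, 9 and 11 of 13 above 0. With reads scaled to the library total the first of these counts was 0 of 13. All genes had medians of 0.14, 0.12 and 0.02, and centred on these 0, 8 and 10 of 13 were above 0. Against control the non-ATPase median was -0.02 in SMG6/XRN1 and 0.16 in UPF1/XRN1, where all genes had 0.25 and 0.15. PSMD1, a large scaffold subunit that docks ubiquitin receptors, was at 54.9, 40.9, 55.5 and 61.6 FPKM. By reads the UPF1/XRN1 library held 1.59 times the XRN1 level of PSMD1 (1.53 to 1.65) and the SMG6/XRN1 library 1.43 times (1.38 to 1.49). PSMD11, a lid subunit linked to assembly of the full particle, was at 89.2, 70.7, 82.9 and 94.7 FPKM, again lowest with XRN1 alone. PSMD12, another lid subunit, was at 73.8, 69.9, 94.97 and 99.4 FPKM and stood above control in both co-depletions. PSMD7, the partner of the deubiquitinase PSMD14 in the lid, was at 94.0, 101.7, 92.1 and 124.7 FPKM, and only the UPF1/XRN1 library stood out. PSMD10, also called gankyrin, an assembly chaperone of the ATPase ring rather than a subunit, ran opposite at 131, 134, 125 and 116 FPKM. By their own reads, PSMD2, the other large scaffold, had 5642, 4486, 4686 and 4919, and PSMD9, an assembly chaperone, 919, 855, 930 and 1325. PSMD5, a chaperone that also binds the ATPase ring, was all but absent from the table, with 3, 3, 12 and 11 reads; whether its reads were given to another locus was not tested.

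**Figure D2:**
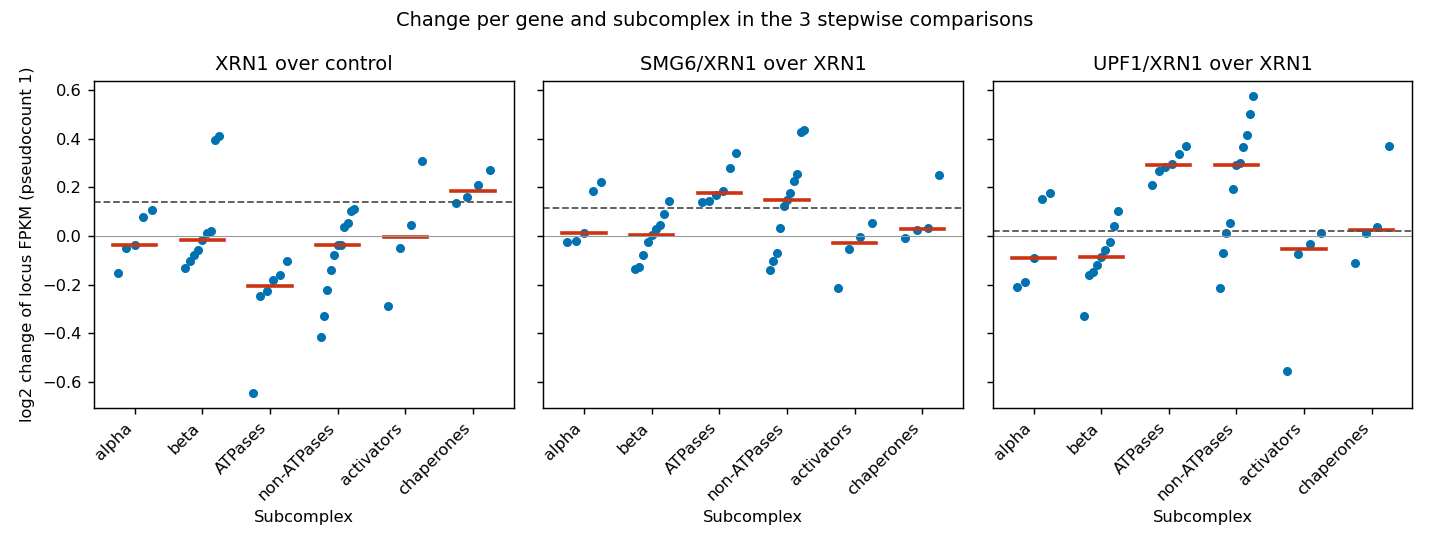
Log2 change of locus FPKM (pseudocount 1) for proteasome genes that hold at least 80% of their locus, by subcomplex, in the 3 stepwise comparisons. PSMF1 and PSMC3IP, the one called gene, are not drawn. Red bars are medians and the dashed line is the median of all genes. In UPF1/XRN1 over XRN1 the medians are 0.29 for the ATPases and the non-ATPases and -0.09 for the alpha and beta genes.

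Core and regulatory medians lay on different sides of 0 in UPF1/XRN1 over XRN1, the core close to it. The alpha genes had a median of -0.09 with 3 of 7 above 0 and the beta genes -0.09 with 2 of 9 above 0 (3 and 4 when isoform signals were summed), against 0.29 for both groups of the regulatory particle. The core medians were -0.03 for alpha and beta genes alike with isoform signals summed or with reads scaled to the library total, where the regulatory medians were 0.37 to 0.38. A ratio within each library does not depend on how libraries are scaled to each other. The summed FPKM of 17 regulatory genes (PSMC and PSMD symbols, PSMD10 included) was 0.869, 0.790, 0.849 and 0.954 times that of 14 core genes. By reads the same ratio was 1.35 (1.33 to 1.36), 1.22 (1.21 to 1.23), 1.34 (1.33 to 1.35) and 1.52 (1.51 to 1.54). The XRN1 library was lowest and the UPF1/XRN1 library highest, the control and SMG6/XRN1 intervals overlapped, and no replicate shows how far this ratio moves by chance. Abundant genes weigh most in such sums. PSMC1 gave 13533, 8804, 9749 and 11856 of the 112529, 97297, 110425 and 132507 regulatory reads. PSMA4 gave 21466, 20322, 20478 and 20508 of the 83615, 79716, 82303 and 87003 core reads. The ratio without these genes was not tested.

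Transcript length differed between core and regulatory genes. The matched coding isoform with the most signal had a median of 996 bases for 13 core genes and 1579 for 17 regulatory genes. It need not be the main isoform of the gene. For PSMC2 it has 682 bases, but an isoform without annotated match held 94.5% of the PSMC2 reads in XRN1. Over all genes, those with up to 1000 bases had a median change of -0.11 in UPF1/XRN1 over XRN1, those of 1000 to 1500 bases -0.01 and those of 1500 to 2000 bases 0.05. The median was 0.05 for 2000 to 3000 bases, 0.04 for 3000 to 5000 and -0.03 above 5000, so the changes did not follow length throughout. In the first 3 classes the core genes had medians of -0.06 (7 genes) and -0.09 (3 genes), and the regulatory genes 0.25 (2 genes), 0.05 (3 genes) and 0.24 (6 genes). The 2 regulatory genes up to 1000 bases are PSMD7 and PSMC2, and the class of PSMC2 is uncertain for the reason given above. In the class of 3000 to 5000 bases the 4 regulatory genes had a median of 0.46 and the 2 core genes -0.02. The part of length in the difference was not tested beyond these values.

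Other large complexes were set beside them, and their medians in this comparison were below those of the regulatory particle. The 8 genes of the chaperonin TRiC, which folds actin and tubulin, had a median of -0.17 in UPF1/XRN1 over XRN1 with 0 of 8 above 0. The 11 measured genes of the translation initiation factor eIF3, whose subunits share domains with the proteasome lid, had a median of -0.15 with 2 of 11 above 0. The 9 genes of the COP9 signalosome, a complex built like the lid, had a median of -0.02 with 4 of 9 above 0. Within the signalosome COPS8 fell, from 31.1 FPKM in the control to 10.8, 14.2 and 11.7, a log2 change of -1.44 in XRN1 over control. These differences between lists are given by their medians and were not tested.

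The activators and the inhibitor did not move as a group. PSME1, a subunit of the interferon-inducible activator ring, was at 75.6, 72.9, 62.7 and 49.3 FPKM, lower in each co-depletion than with XRN1 alone. Its log2 change of FPKM in UPF1/XRN1 over XRN1, -0.56, was the lowest of the members that passed 1 FPKM. By reads its level there was 0.713 times that of XRN1 (0.670 to 0.758), and that of PSMB9, on 40 and 52 reads, was 0.707 times (0.456 to 1.09). Its partner PSME2 was at 25.3, 26.2, 27.2 and 24.8 FPKM and did not follow it. PSME3, the nuclear activator and the most abundant of the 4, was at 85.8, 70.2, 69.9 and 70.9 FPKM, with the control alone high. PSME4, the largest and least abundant activator, was at 15.3, 19.3, 18.5 and 18.8, with the control alone low. By reads its UPF1/XRN1 level was also above that of XRN1, by 1.21 times (1.15 to 1.27). PSMF1 was at 38.1, 39.1, 43.3 and 47.5 FPKM.

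Of the assembly chaperones, PSMG1 was the most abundant, at 140, 162, 165 and 150 FPKM, and its partner PSMG2 was at 18.9, 23.0, 27.6 and 23.6. PSMG3 was at 14.5, 16.1, 16.5 and 21.1 FPKM and PSMG4, its partner, at 11.8, 13.3, 13.2 and 13.4. All 4 chaperones were above control in all 3 depletions, by at most 0.52 on the log2 scale; centred on the median of all genes, 3, 1 and 3 of the 4 were above 0. The UPF1/XRN1 library stood out for PSMG3 but not for PSMG4.

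PSMC3IP carries the proteasome prefix only because it was found as a partner of PSMC3. It encodes a cofactor of the recombinases of meiosis and has no part in protein degradation. Its level was 48.4, 52.1, 84.4 and 145.4 FPKM. The control and XRN1 libraries were closest to each other, and both co-depletions stood above them. The log2 change was 0.68 in SMG6/XRN1 over XRN1, 1.46 in UPF1/XRN1 over XRN1 and 1.57 in UPF1/XRN1 over control, where it rose. By reads the UPF1/XRN1 level was 2.58 times the XRN1 level (2.45 to 2.71), and the SMG6/XRN1 level 1.58 times (1.49 to 1.67).

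Most of this signal came from isoforms typed as coding. PSMC3IP-204, the main one, had 1152, 868, 1460 and 3278 reads, and PSMC3IP-208 had 280, 267, 554 and 1286. PSMC3IP-202 did not follow them, with 378, 779, 815 and 739. The NMD-typed PSMC3IP-203, whose premature stop is shown above, had 21, 19, 87 and 151 reads and rose 7.30-fold in UPF1/XRN1 over XRN1 (4.52 to 12.5). It made up 2.64% of the gene's signal in UPF1/XRN1 and 0.932% in XRN1, so most of the gene's reads lay in coding isoforms.

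**Figure D3:**
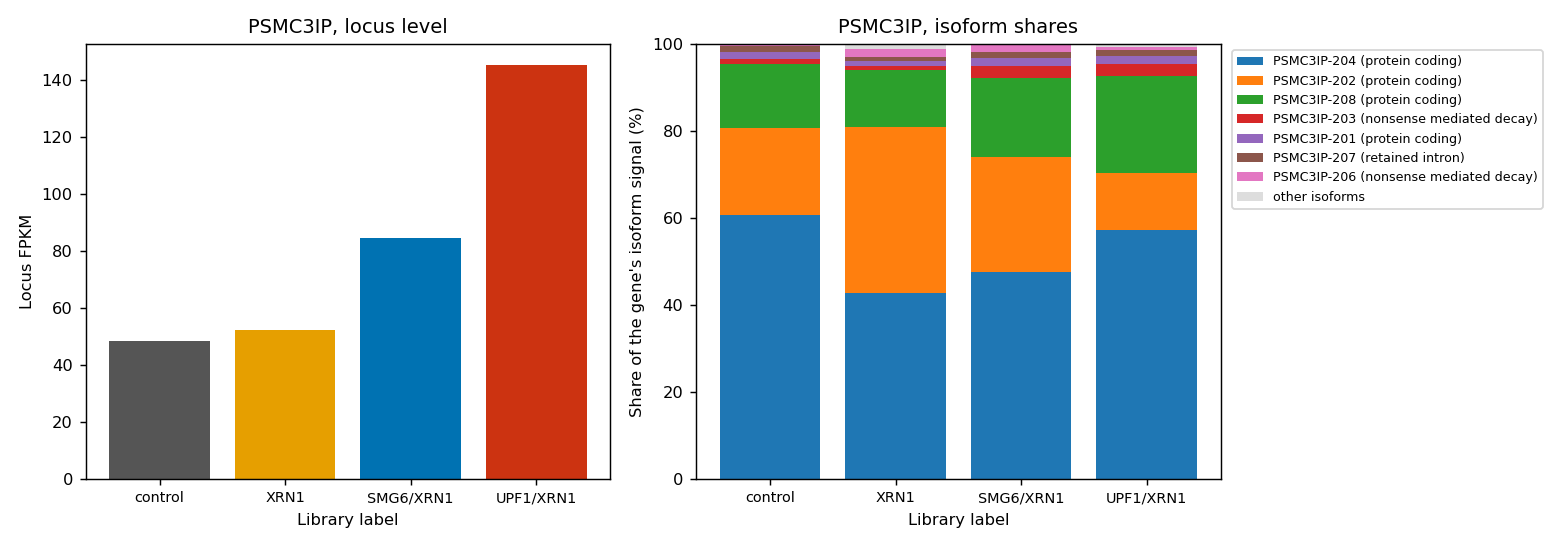
Left, locus FPKM of PSMC3IP in each library (48.4, 52.1, 84.4 and 145.4); right, the share of the gene's isoform signal, in percent, held by each isoform. The coding isoforms PSMC3IP-204, PSMC3IP-202 and PSMC3IP-208 hold most of the signal in all 4 libraries.

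The picture of near-constant genes did not hold for single isoforms. Of the 447 listed isoforms of proteasome genes, 230 had a mean signal at or above the median of all isoforms with signal and were followed. In XRN1 over control 37 were at least 2-fold higher and 15 lower, which is 16.1% and 6.52%, beside 24.3% and 12.6% of all 61408 isoforms followed. In SMG6/XRN1 over XRN1 52 were higher and 8 lower, 22.6% and 3.48% beside 25.1% and 9.3%. In UPF1/XRN1 over XRN1 65 were higher and 10 lower, 28.3% and 4.35% beside 27.1% and 11.5%. Against control, 70 were higher in SMG6/XRN1 and 81 in UPF1/XRN1, where 35.2% and 35.5% of all isoforms were, and 8 were lower in each, where 8.52% and 10.3% were. The higher calls were thus near or below the background of all isoforms, and the lower calls were below it.

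Annotated type divided them. Of 104 isoforms typed protein_coding, 6, 9 and 11 were higher in the 3 stepwise comparisons. That is 5.77%, 8.65% and 10.6%, beside 17.3%, 17.2% and 17.7% of all such isoforms. Of 25 typed nonsense_mediated_decay, 5, 6 and 9 were higher, beside 33.8%, 40% and 44.7% of all such isoforms, and 12 and 15 were higher in SMG6/XRN1 and UPF1/XRN1 over control, beside 56.2% and 59.1%. Of 27 typed retained_intron, 5, 13 and 15 were higher, or 18.5%, 48.1% and 55.6%, beside 28.5%, 27.8% and 32.5% of all such isoforms. Of 15 typed processed_transcript, 5, 6 and 9 were, or 33.3%, 40% and 60%, beside 29.4%, 30.8% and 33.9%. Of 54 isoforms whose chain of junctions matches no annotated transcript, 16, 18 and 21 were higher. That is 29.6%, 33.3% and 38.9%, beside 30.6%, 32.4% and 35.4% of all such isoforms. The share of retained-intron isoforms of proteasome genes that were higher in the co-depletions, 48.1% and 55.6%, was above that of all genes, and the share of NMD-typed ones, 24.0% and 36.0%, was below it; neither difference was tested.

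**Figure D4:**
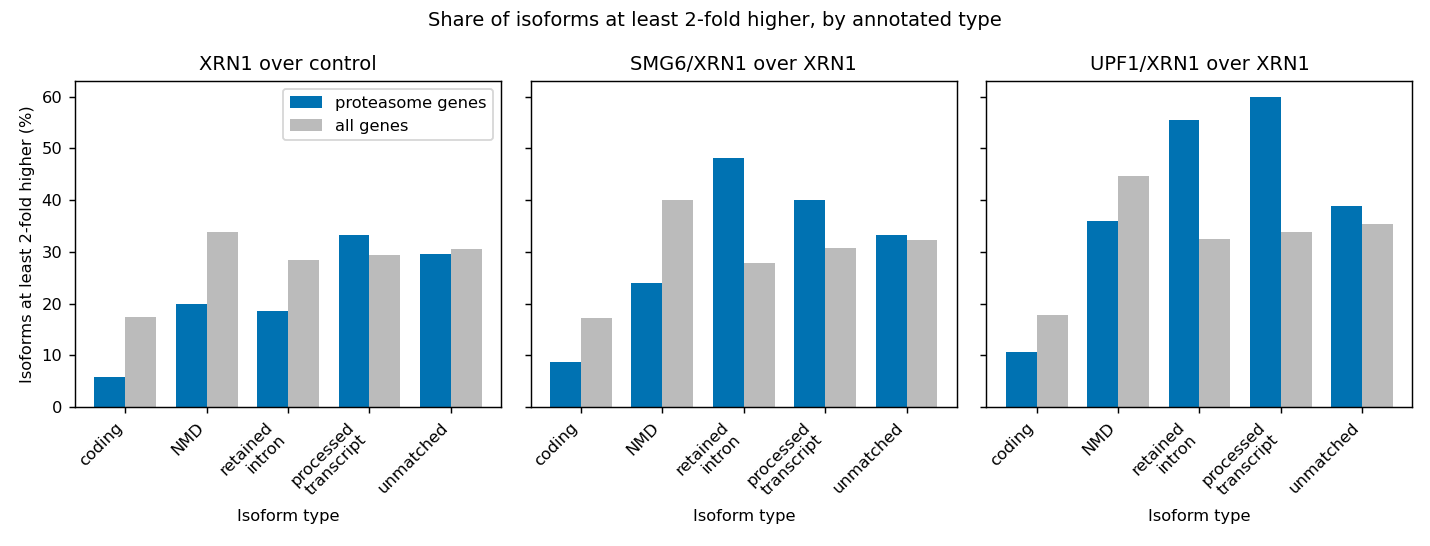
Percent of isoforms at least 2-fold higher in each of the 3 stepwise comparisons, by annotated type, for proteasome genes (blue) and all genes (grey). In UPF1/XRN1 over XRN1 the blue bar is 10.6% for coding, 36.0% for NMD and 55.6% for retained-intron isoforms.

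Among the NMD-typed isoforms, PSMD12-207 had 22, 29, 130 and 380 reads. Control and XRN1 did not differ beyond counting error, and the level rose 4.71-fold (3.13 to 7.30) in SMG6/XRN1 and 12.04-fold (8.24 to 18.2) in UPF1/XRN1, each over XRN1. Its share of PSMD12 signal went from 0.425% in XRN1 to 3.56% in UPF1/XRN1. PSMA2-205 had 3, 0, 36 and 94 reads, at least 12.6-fold and at least 28.8-fold higher in the co-depletions than the floor of 3 reads in XRN1. PSMA2-203 had 29, 38, 59 and 113 and rose 2.73-fold (1.88 to 4.06) in UPF1/XRN1 over XRN1. PSMA2 was the alpha gene with the lowest change in that comparison, so its NMD-typed isoforms and its sum went in opposite directions.

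For PSMC6 and PSMD4 part of the rise was already seen with XRN1 alone. PSMC6-205 had 2, 16, 60 and 83 reads, a ratio of 8.41 in XRN1 over control (1.98 to 75.4) and of 4.76 in UPF1/XRN1 over XRN1 (2.77 to 8.72). PSMD4-203 had 9, 61, 91 and 152 reads, a ratio of 7.12 in XRN1 over control (3.52 to 16.3) and of 2.29 in UPF1/XRN1 over XRN1 (1.69 to 3.13). PSMB5-201, an NMD-typed isoform of the chymotrypsin-like subunit, had 2, 2, 26 and 21 reads, with the co-depletions alike within counting error.

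PSMD7-206 was the largest of those that rose. It had 375, 542, 588 and 922 reads and made up 11.6%, 16.2%, 19.2% and 19.6% of PSMD7. Its UPF1/XRN1 level was 2.37 times control (2.10 to 2.68) but 1.56 times XRN1 (1.40 to 1.74), so it passed 2-fold only against control. PSMD13-204 had 199, 196, 312 and 555 reads and rose 2.60-fold in UPF1/XRN1 over XRN1 (2.21 to 3.08), from 9.31% to 17.6% of PSMD13.

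The contrasting isoforms kept their level or were lower. PSMG1-204 had 1275, 1357, 1276 and 1361 reads, and its UPF1/XRN1 over control ratio was 1.03 (0.954 to 1.11). PSMB6-202 had 242, 178, 188 and 148, a ratio of 0.590 to control in UPF1/XRN1 (0.478 to 0.727). PSMD13-202 had 1254, 1055, 1142 and 1218 reads, and was the most abundant isoform of PSMD13 in the control, with 56.7% of the signal, although it is typed NMD. The distance from stop to last junction did not separate the groups: the 14 isoforms at least 2-fold higher in UPF1/XRN1 than in control had stops 112 to 1316 bases before the last junction (median 417), and the 10 others 79 to 3669 (median 512).

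**Figure D5:**
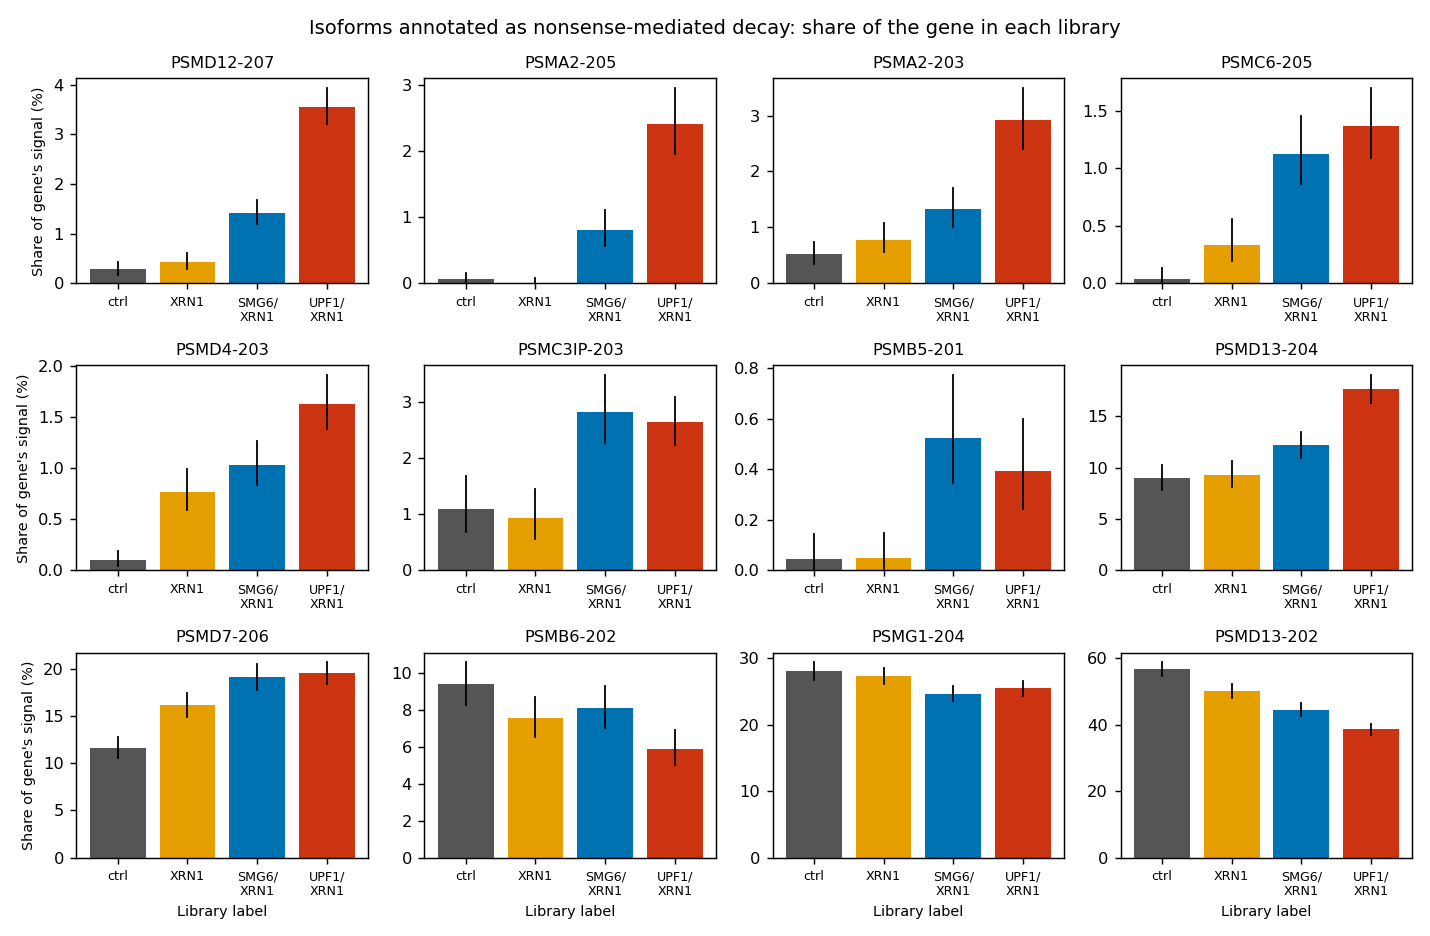
Share of the gene's isoform signal, in percent, held by 12 isoforms typed nonsense-mediated decay in each library; black lines are exact 95% binomial intervals for counting error. PSMD12-207 goes from 0.286% to 3.56%, whereas PSMG1-204, PSMB6-202 and PSMD13-202 in the lowest row do not rise.

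NMD-typed isoforms were a small part of the pooled reads, but not of every gene. In the control they held 83.0% of PSMD9, 65.7% of PSMD13, 28.6% of PSMG1 and 23.2% of PSME4. The NMD-typed PSMD9-204 was the isoform with the most signal of PSMD9 in all 4 libraries, with 61.5% in the control. Over all proteasome genes NMD-typed isoforms held 2.33% of reads in the control (2.27 to 2.39), then 2.71% and 2.66%, and 3.15% in the UPF1/XRN1 library (3.08 to 3.21). The intervals of XRN1 and SMG6/XRN1 overlapped, and UPF1/XRN1 was above both. In UPF1/XRN1 the isoforms shown above made up 0.396% of PSMB5, 1.37% of PSMC6 and 1.63% of PSMD4, so their differences are hardly seen in the sum of the gene.

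Retained-intron isoforms of several genes rose in both co-depletions. These examples were chosen after their values were seen. PSMB4-203 had 90, 109, 306 and 373 reads and rose 2.95-fold (2.36 to 3.70) in SMG6/XRN1 and 3.14-fold (2.53 to 3.93) in UPF1/XRN1 over XRN1, from 2.83% to 7.98% of PSMB4. PSMA1-207 had 5, 31, 80 and 147 reads, and PSMC5-207 had 2, 5, 30 and 93. Not all followed: PSMC5-204 had 408, 343, 440 and 374 reads, and PSMG1-205 had 1281, 1553, 1681 and 1700. PSMC1-205 had 1473, 693, 989 and 1234 reads, with the same shape as its gene and more than 2-fold lower in XRN1 than in control.

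An isoform that was at least 2-fold higher in both co-depletions than in XRN1 matched no annotated transcript. It is an isoform of PSMA3, nearest to PSMA3-201, with 264, 345, 917 and 1479 reads. The control and XRN1 libraries were lowest and UPF1/XRN1 highest; it rose 2.79-fold (2.46 to 3.17) in SMG6/XRN1 and 3.94-fold (3.50 to 4.44) in UPF1/XRN1 over XRN1. Its share of PSMA3 was 3.47%, 5.23%, 12.1% and 17.5%, while the FPKM of the gene stayed between 218 and 249. Its reading frame is not known from the files.

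The largest single changes fell on isoforms listed at 0 in 1 library or more. PSMC5-202, typed coding, had 0, 44, 48 and 176 reads, at least 56.8-fold higher in UPF1/XRN1 than the control floor of 3 reads. PSMD2-208, a processed transcript, had 0, 25, 62 and 124 reads (at least 39.8-fold), and PSMD4-211, a retained intron, had 0, 9, 42 and 102 (at least 32.8-fold). In these 3 the UPF1/XRN1 library was highest, as it was for PSMA6-211, with 9, 0, 18 and 30 reads. An unmatched PSMD13 isoform nearest to PSMD13-212 had 2, 0, 12 and 30 reads. Others did not follow this order: PSMD2-215, a retained intron, had 0, 0, 36 and 7 reads, and an unmatched PSME1 isoform nearest to PSME1-205 had 0, 32, 35 and 33.

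Of the largest falls, several ended at 0 in the UPF1/XRN1 library. An unmatched PSMC5 isoform had 96, 36, 33 and 0 reads, PSMD4-205 had 43, 0, 10 and 0, PSME3-205 had 17, 0, 16 and 0, and PSMD2-202 had 1, 10, 37 and 0. PSMA1-214, a retained intron, had 0, 41, 14 and 3. In other falls the SMG6/XRN1 library was lowest or tied for lowest. An unmatched PSMC3IP isoform nearest to the NMD-typed PSMC3IP-203 had 0, 23, 0 and 29 reads, and an unmatched PSMB10 isoform 0, 20, 0 and 27. PSME3-204, typed NMD, had 33, 54, 7 and 80 reads, so not every NMD-typed isoform was high in both co-depletions. The coding PSME2-207 had 57, 22, 8 and 40 and PSMC1-202 had 147, 68, 26 and 92. An exact 0 for 1 of many overlapping isoforms can be a failed estimate.

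The isoform with the most signal was the same in all 4 libraries for 40 of 45 genes and differed for 5. PSMC4 changed from PSMC4-202 in the control and XRN1 (52.3% and 50.5%) to PSMC4-201 in the co-depletions (53.5% and 51.5%), both typed coding. PSMG1 changed from the coding PSMG1-201 in the control to the retained-intron PSMG1-205 in the 3 others, though each held 31.2% where it led in the first pair. PSMD2 was led by PSMD2-206 only in SMG6/XRN1 and otherwise by PSMD2-201, PSME3 by PSME3-213 only in the control and otherwise by PSME3-210, and PSME4 by an isoform without annotated match only in XRN1 and otherwise by PSME4-202.

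Around the proteasome, 30 genes of ubiquitin supply, shuttling, transcriptional control and proteasome-bound factors were followed, and all had at least 1 FPKM. In the 3 stepwise comparisons and in SMG6/XRN1 over control 1 of 30 was higher each time, in UPF1/XRN1 over control 2 of 30 were, and 0 were lower. These shares, 3.33% and 6.67%, stand beside 4.11%, 1.36%, 2.52%, 9.3% and 10.2% of all genes and are near or below them. ZFAND2A, an arsenite-inducible factor that binds the proteasome, was at 9.16, 22.0, 45.3 and 65.7 FPKM and rose in every comparison. Its step from XRN1 to SMG6/XRN1, 1.012 on the log2 scale, was under 2-fold when centred on the median of all genes (0.89) or with reads scaled to the library total (0.96), and on the latter scale so was XRN1 over control (0.90 in place of 1.18). UFD1L, the substrate adaptor of the segregase VCP, was at 71.2, 78.5, 103 and 144 FPKM, with a log2 change of 1.001 in UPF1/XRN1 over control that just passed 2-fold and did not when centred (0.85) or with reads scaled to the library total (0.91). UBQLN2, a shuttling factor, had the lowest change of the list in UPF1/XRN1 over control, -0.55. NFE2L1 was at 5.33, 7.55, 10.5 and 10.6 FPKM, a log2 change of 0.87 in UPF1/XRN1 over control that did not pass 2-fold.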

How the data were processed

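Per the submitters' processing notes, the tools include Cufflinks 2.0.2, TopHat2 2.0.6, Bowtie 0.12.7 and CASAVA 1.8.2, with hg19; what each did is not stated there. The authors deposited FPKM per assembled locus and, per isoform, a spike-in normalised signal. The sources used here do not state how the spike-in factor was made or whether strand was used. In each library 84.6% to 86.6% of low loci had signals that were whole multiples, within 0.01, of the value of 1 read, so signal was divided by that value to estimate reads.

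Changes are log2 ratios with a pseudocount of 1, for loci with a mean of at least 1 FPKM and isoforms at or above the median mean signal; a difference was called at 2-fold. Read ratios have exact conditional binomial, and shares Clopper-Pearson, 95% intervals; the floor for a count of 0 was 3 reads. Isoform types and stops come from GENCODE release 29 (GRCh38), matched by transcript ID without version; the scripts were tested on simulated data. PSMD12P was left out as a pseudogene, and 1 gene of the lists and 1 sequence are not reported here. Named genes are the catalytic and interferon-inducible subunits, every called member, the 3 largest rises and falls in each comparison, and the highest and lowest of each subcomplex; named isoforms are the 3 largest rises and falls, and leading isoforms that differ; other isoforms were picked after their values were seen. The members, lists and comparisons were chosen with earlier results of these data known. The alternatives were other pseudocounts, filters, centring and scales. Python 3.11.15, pandas 2.3.3, numpy 2.4.6, scipy 1.17.1 and matplotlib 3.10.9 were used.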

Additional observations from a re-analysis of the deposited data

How the results depend on the processing

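No paired analysis was possible because each condition has 1 RNA-seq library, which also leaves no library to leave out. Only PSMC3IP was called, at 1.46 in UPF1/XRN1 over XRN1 and 1.57 in UPF1/XRN1 over control. Neither value changed sign over the settings tried, which says nothing about the genes that were not called. The median change of the proteasome genes was small enough for its sign to depend on the scale. Centred on the median of all genes it was -0.18 in XRN1 over control, -0.063 in SMG6/XRN1 over XRN1, -0.21 in SMG6/XRN1 over control and -0.090 in UPF1/XRN1 over control, the main values being -0.04, 0.05, 0.04 and 0.06. With isoform signals summed it was 0.18 in SMG6/XRN1 over XRN1, 0.12 in UPF1/XRN1 over XRN1, 0.14 in SMG6/XRN1 over control and 0.18 in UPF1/XRN1 over control. With reads scaled to the library total it was -0.15 in XRN1 over control, 0.12 in UPF1/XRN1 over XRN1 and -0.14 in SMG6/XRN1 over control. The subcomplex medians of UPF1/XRN1 over XRN1 kept 0.27 or more for ATPases and non-ATPases on each scale. Without PSMC3IP, a setting added after the data had been seen, the count of higher genes was 0 in place of 1 in both UPF1/XRN1 comparisons; keeping only genes with at least 80% of their locus, added likewise, moved neither counts nor medians.

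Isoform counts depend on the filter. With a mean of at least 20 reads, 193 isoforms were left. The counts were then 24 higher and 8 lower in XRN1 over control (main 37 and 15), 32 and 5 in SMG6/XRN1 over XRN1 (52 and 8), 46 and 4 in SMG6/XRN1 over control (70 and 8), and 4 lower in UPF1/XRN1 over control (8). Counted against all isoforms of the loci, the NMD-typed share was 2.08%, 2.42%, 2.37% and 2.81% in the control, XRN1, SMG6/XRN1 and UPF1/XRN1 libraries. Depth limits the isoforms of few reads, such as PSMB5-201, whose intervals span more than 10-fold.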
